A study of Mus musculus with 6 samples.

Results

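The nuclear genes of mitochondrial complexes II to V were followed in hippocampal mRNA of neonatal mice. The members were the protein-coding rows of the deposited table whose symbol begins with Sdha, Sdhb, Sdhc or Sdhd, with Uqcr, with Cox or with Atp5. This rule found 59 of the 24935 genes in the table, 8 for complex II, 8 for complex III, 26 for complex IV and 17 for complex V. It also takes in assembly factors (Sdhaf and several Cox genes) and a pair of genes, Atp5s and Atp5sl, whose products are not core subunits of the enzyme. Libraries came from the left hippocampus of C57BL/6 pups at postnatal day (P) 14. Air-exposed mice (n = 3 libraries) were kept with their dams in room air, and hyperoxia-exposed mice (n = 3) were kept with their dams in 85% oxygen at normal pressure from P2 to P14. Pups of both sexes were used, and the sex, litter and animal behind each deposited column are not given there, so libraries are numbered here as the columns are, 1 to 3 in each group. Every direction below rests on the group that a column is named for, and if the names were exchanged every rise would be a fall. The paper that reported these data gives gene expression changes of opposite sign for Camk2a, Slc17a7, Prox1, Cspg4 and Uqcr10. Which labels are right was not tested. As dam and pup shared the exposure, an effect through the dam and one on the pup cannot be told apart.

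Complex II (succinate dehydrogenase) passes electrons from succinate to ubiquinone, complex III from ubiquinone to cytochrome c, and complex IV (cytochrome c oxidase) from cytochrome c to oxygen. Complexes III and IV pump protons, and complex V (ATP synthase) makes ATP as protons flow back through it. In complexes III, IV and V, large nuclear or mitochondrially encoded core subunits do the chemistry and are surrounded by many small nuclear subunits. Neurons depend heavily on this pathway to restore ion gradients after firing.

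The values are normalized read counts, that is, the reads counted on a gene divided by 1 size factor per library. Levels of different genes are compared only per kilobase of the principal transcript. Sums over genes and ratios between genes use normalized counts without regard to length, and serve only to compare libraries. Reads on genes came to between 30384052 and 38746972 per library, and the tested members had from 12 to 36440 reads each, which for most of them leaves counting error small beside the spread between libraries. Every fold change below is a difference of log2(normalized count + 1), hyperoxia minus air, which understates the change of low genes, and is given with its standard error (SE). Adjusted p values are from limma with Benjamini-Hochberg adjustment over all 17778 genes with a mean of at least 10, and a gene was called at an adjusted p under 0.05. Fewer cells of a type and less RNA per cell cannot be told apart in such tissue. Hyperoxia library 2 stood apart from the other hyperoxia libraries, and it held the highest hyperoxia value for 42 of the 56 tested members (75%), against 40.2% of all tested genes.

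Of 56 tested members, 10 fell and 1 rose, and the other 45 were not called. The 10 included the complex III subunits Uqcrb, Uqcr11 and Uqcrh, and the complex IV subunits Cox8a and Cox5a with Cox7a2l. The others were Atp5k, Atp5g3 and Atp5f1 of complex V, and Atp5sl, which is not a core subunit and is counted with complex V by its symbol. Across all tested genes 30.5% were called, 14.9% higher and 15.6% lower, so the members' share of 19.6% lay below the background, and their share of falls, 17.9%, was near it. Complex III had 3 of 8 tested members called, complex IV 3 of 23, complex V 4 of 17, all lower, and complex II 1 of 8, higher. The median log2 fold change was -0.07 over the members and -0.01 over all genes. It was -0.07 for complex II, -0.11 for complex III, -0.03 for complex IV and -0.11 for complex V. The 3 hyperoxia values lay below the 3 air values for 13 members and above them for 6, against a background of 23.8% and 22.3% of all genes. Without hyperoxia library 2, 21 members were called, 2 higher and 19 lower. That fit called 43.6% of all genes in either direction, 7756 of 17778, with 3838 of them higher. limma without the trend called 7, losing Sdhd, Cox5a, Cox7a2l, Atp5sl and Atp5f1 and adding Cox11. It called 4224 of all 17778 genes.

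**Figure D1:**
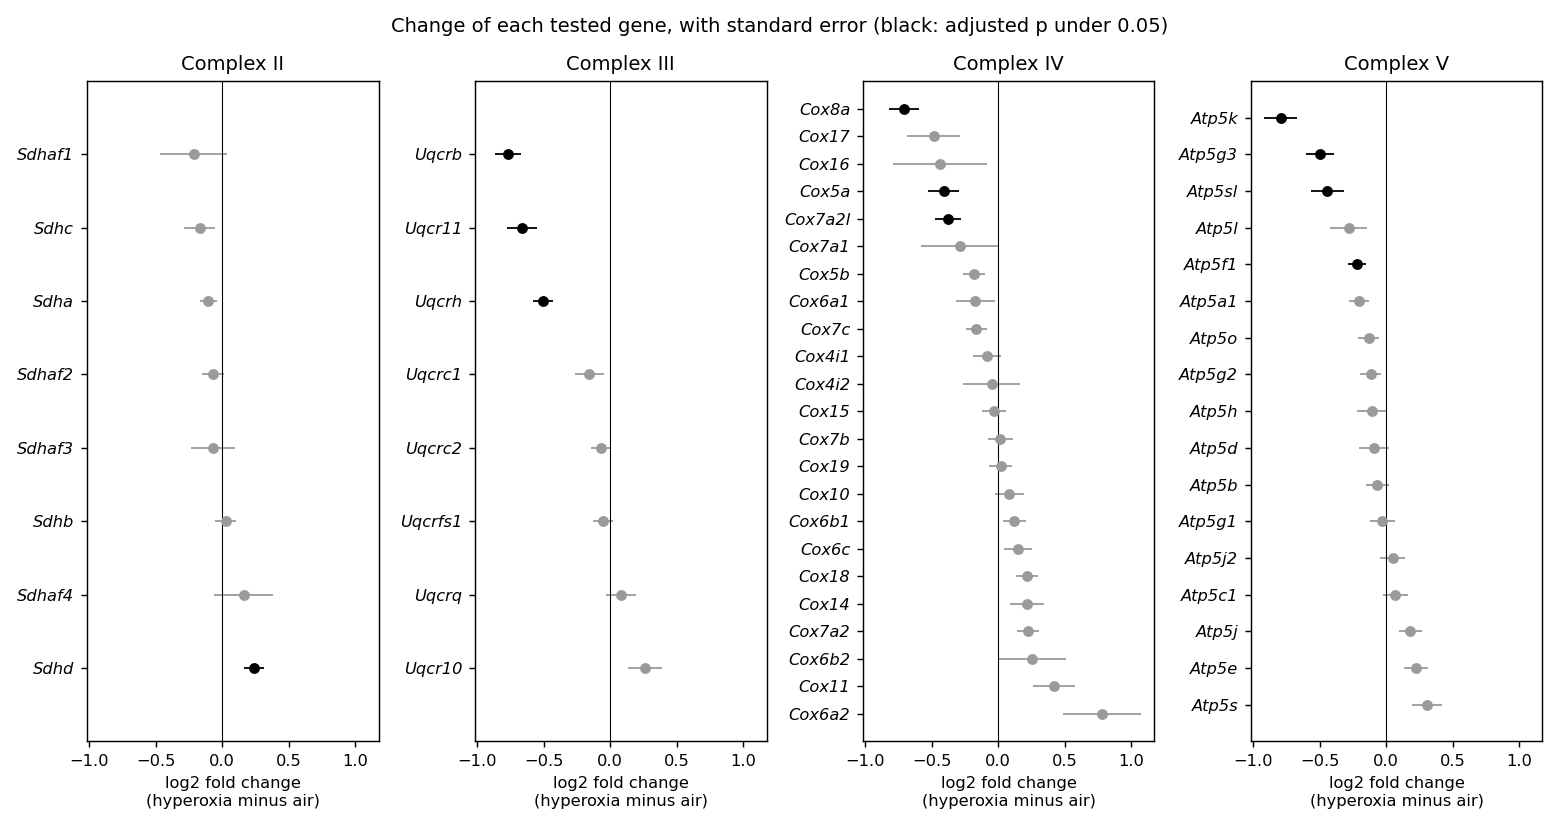
The log2 fold change (hyperoxia minus air, horizontal axis) of each of the 56 tested genes is drawn with its standard error, in one panel per complex, black where the adjusted p was under 0.05. The 10 called falls spread over complexes III, IV and V, next to members of the same complex near or above 0.

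Members of complexes II to V mostly have short transcripts, and this bears on the counts above. The median principal transcript of the tested members had 791.5 bases, against 2659 over all tested genes. Among the 1051 protein-coding tested genes with a transcript of at most 1000 bases, the median log2 fold change was -0.10, 21.4% were called lower and 7.90% higher. When trends on transcript length and on GC content were fitted in each library and taken out, 21 members were called, 13 higher and 8 lower, where 14.8% of all genes were called higher and 19.2% lower. Of the 11 calls, 9 were kept under this correction and 12 members were added, all higher. The sign turned from below to above 0 in 12 of the 56 tested members, none of them among the 11 called, and the median of the members went from -0.07 to 0.03. What the length trend itself comes from was not tested.

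**Figure D2:**
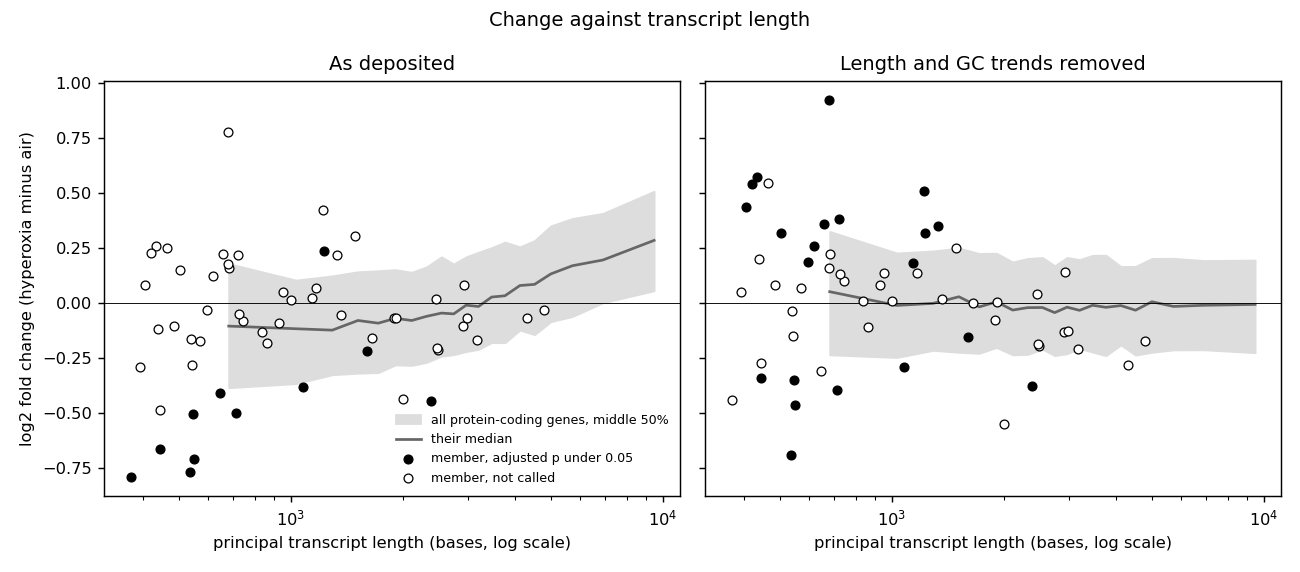
Points show the log2 fold change (hyperoxia minus air) of the 56 members against principal transcript length (log axis), as deposited on the left and with the length and GC trends removed on the right. The grey band holds the middle 50% of all protein-coding genes, whose median runs from about -0.10 in the shortest genes upward with length on the left and stays near 0 on the right.

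In complex II, 1 of the 4 structural genes was called. Sdhd encodes the small membrane anchor that holds heme and binds ubiquinone (gene on chromosome 9, 50596357 to 50603812 of GRCm38, minus strand). It had 2129, 2105 and 2071 normalized counts in air and 2288, 2656 and 2497 in hyperoxia, with every hyperoxia library above every air library. The rise was 0.24 ± 0.08 SE (log2; limma adjusted p = 0.039), or 18% of the air mean. The call was lost in each fit that left out 1 air library and in that without hyperoxia library 3, and the highest limma adjusted p over the alternatives was 0.12. Without hyperoxia library 2 the rise was 0.19. With length and GC trends removed it was 0.32 (limma adjusted p = 0.0030).

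Sdha, the flavin-carrying catalytic subunit, had 9986, 10029 and 9835 counts in air and 9168, 9037 and 9557 in hyperoxia. All 3 hyperoxia libraries were lower, by a small margin, and the change of -0.11 ± 0.06 SE was not called (limma adjusted p = 0.24). Sdhb, the iron-sulfur subunit, had 3322, 3215 and 2989 counts in air and 3116, 3533 and 3048 in hyperoxia. Its groups overlapped (0.02 ± 0.08 SE, limma adjusted p = 0.84). With length and GC trends removed, Sdhb was called higher (0.18, limma adjusted p = 0.024). Sdhc, the other membrane anchor, had 2788, 2891 and 2602 in air and 2246, 2979 and 2201 in hyperoxia, where library 2 lay above all air libraries. Its change was -0.17 ± 0.11 SE (limma adjusted p = 0.28), and without hyperoxia library 2 it was -0.31 and called (limma adjusted p = 0.0033). The 4 assembly factors Sdhaf1 to Sdhaf4 were not called by limma, edgeR or DESeq2 (0 of 4 at an unadjusted p under 0.05 in limma), with log2 fold changes from -0.21 to 0.16.

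Of the 5 members called under every alternative, 3 belong to complex III. Its 5 small subunits divided into 3 that fell and 2 that did not, while its 3 large subunits were not called with all libraries. Uqcrb, the small matrix-side subunit next to the ubiquinone pocket (chromosome 13, 66900617 to 66905378, minus strand), had 3286, 3186 and 2867 counts in air and 1723, 2090.0 and 1693 in hyperoxia. The 2 groups were far apart, at 3113 ± 219 against 1835 ± 221 (SD, n = 3). Uqcrb fell by 0.77 ± 0.10 SE on the log2 scale (limma adjusted p = 0.00097), a mean change of -41.0%. Of its windows as long as a read, 29.1% also occur in the transcripts of 3 other genes, so some of its reads may have been dropped or shared.

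Uqcr11, the smallest subunit of the complex (chromosome 10, 80402997 to 80406830, minus strand), had 6935, 6349 and 6248 counts in air and 3775, 4966 and 3684 in hyperoxia. It fell by 0.66 ± 0.11 SE (limma adjusted p = 0.0028), a mean change of -36.4%. Uqcrh, the acidic hinge protein that helps cytochrome c dock (chromosome 4, 116066965 to 116075071, minus strand), had 4688, 4304 and 4497 counts in air and 2990.4, 3377 and 3149 in hyperoxia. It fell by 0.50 ± 0.07 SE (limma adjusted p = 0.0016). Air and hyperoxia libraries were fully separate for all 3 genes. All 16 alternatives called Uqcrb, Uqcr11 and Uqcrh, including the one with length and GC trends removed (-0.69, -0.34 and -0.35).

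The other 2 small subunits, chosen for mention after their values were seen, did not follow. Uqcr10, which sits beside cytochrome c1, had 1619, 1723 and 1628 counts in air and 1877, 2491 and 1667 in hyperoxia, a change of 0.26 ± 0.13 SE (limma adjusted p = 0.16). Uqcrq had 3910.1, 3987 and 3778 in air and 3861, 5040.4 and 3577 in hyperoxia (0.08 ± 0.12 SE, limma adjusted p = 0.62). Both overlapped between the groups as deposited, and both were called higher once length and GC trends were removed (0.57 and 0.43). Within a library, the ratio of Uqcr11 to Uqcr10 counts was 4.28, 3.69 and 3.84 in air and 2.01, 1.99 and 2.21 in hyperoxia. That of Uqcrb to Uqcrq was 0.840, 0.799 and 0.759 in air and 0.446, 0.415 and 0.473 in hyperoxia. These ratios do not depend on the size factors. The pairs were picked with their values known, so the gap between the groups is no added support for the falls. Hyperoxia library 2, which was high for most members, lay with the other hyperoxia libraries in both ratios.

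**Figure D3:**
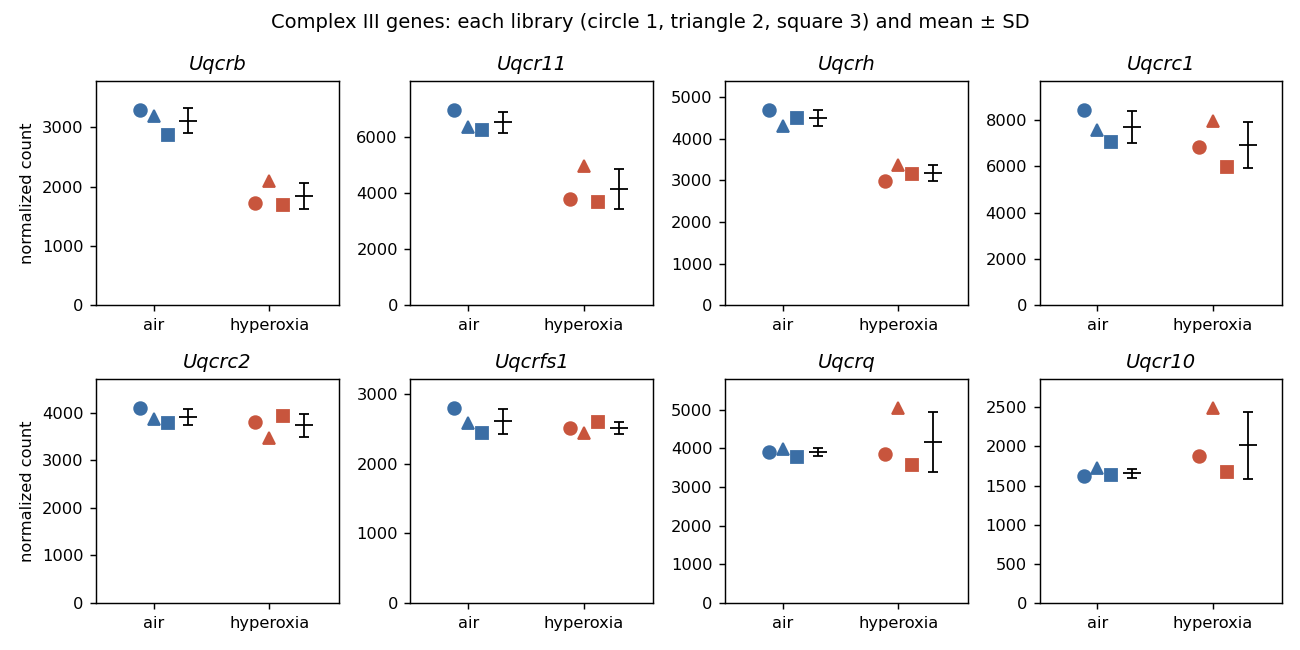
Normalized counts of the 8 complex III genes are drawn for each library, air in blue and hyperoxia in red, with the mean ± SD of each group beside the points and axes from 0. Uqcrb, Uqcr11 and Uqcrh separate the groups completely, and the other 5 genes overlap.

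With all 6 libraries the 3 large subunits were not called by limma, edgeR or DESeq2, and 0 of 3 reached an unadjusted p under 0.05 in limma. Uqcrc1, a core protein facing the matrix, had 8423, 7584 and 7064 counts in air and 6845, 7951 and 5963 in hyperoxia (-0.16 ± 0.11 SE, limma adjusted p = 0.30). Without hyperoxia library 2 it was at -0.26 and called (limma adjusted p = 0.027). Uqcrc2, the other core protein, had 4105, 3863 and 3779 in air and 3803, 3464 and 3941 in hyperoxia (-0.07 ± 0.07 SE, limma adjusted p = 0.51). Uqcrfs1, the Rieske iron-sulfur protein, had 2804, 2593 and 2449 in air and 2515, 2439 and 2599 in hyperoxia (-0.05 ± 0.07 SE, limma adjusted p = 0.62). Summed over its 8 members, which leave out Cyc1, complex III had 33890 ± 1750 normalized counts in air and 28493 ± 2933 in hyperoxia. The ratio of 0.84 was the lowest of the 4 complexes (0.97 for II, 0.89 for IV and 0.92 for V). The sum over all genes was also lower, 35907911 to 36489928 in air and 33631025 to 34399493 in hyperoxia. Complex III made up 0.0980%, 0.0934% and 0.0900% of that sum in air and 0.0814%, 0.0925% and 0.0777% in hyperoxia.

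The sequence just upstream of the start was printed for 3 of these genes, as they sit in one complex and moved differently, and for Sdhd, the member that rose. The stretches are from RefSeq windows on GRCm38.p6, reach up to 120 bases upstream of the first exon, hold no annotated exon, and are written 5′ to 3′ on the gene's strand, which is minus for all 4. Capitals mark the ETS-family core CCGGAAG, read on either strand. Uqcr11 is shown for chr10:80406831-80406950, Uqcrh for chr4:116075072-116075191, Uqcr10 for chr11:4704345-4704464 and Sdhd for chr9:50603850-50603909.
Uqcr11: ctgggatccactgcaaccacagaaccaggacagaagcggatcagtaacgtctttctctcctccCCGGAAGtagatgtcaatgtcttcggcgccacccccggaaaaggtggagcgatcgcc
Uqcrh: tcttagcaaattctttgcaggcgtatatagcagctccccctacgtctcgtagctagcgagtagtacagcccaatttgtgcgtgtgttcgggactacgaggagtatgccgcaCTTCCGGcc
Uqcr10: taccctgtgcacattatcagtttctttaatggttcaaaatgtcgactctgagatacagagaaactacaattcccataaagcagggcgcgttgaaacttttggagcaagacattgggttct
Sdhd: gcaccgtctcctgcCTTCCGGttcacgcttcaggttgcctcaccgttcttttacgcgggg

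The 7 letters stood upstream of 2 genes that fell, Uqcr11 and Uqcrh, and of Sdhd, which rose, and were not in the stretch of Uqcr10. Windows of 250 bases before to 50 after the start were at hand for 48 of the 59 members. The ETS core was in the windows of 41.7% of them, against 17.6% of 11465 protein-coding tested genes and 8.86% of all 32851 windows. The NRF1 core GCGCANGCG, searched on both strands, was in 29.2% of the members' windows, against 13.8% and 6.25%, and the YY1 core AAGATGGC in 12.5%, against 4.65% and 2.75%. None of the 3 motifs holds another, and a match is a string of letters and not a measured binding site. The ETS core was in 4 of 9 members that fell and in 14 of 35 that were not called, and the NRF1 core in 3 of 9 and 10 of 35. The YY1 core was in 2 of 9 and 3 of 35. Members without a window were Sdhc, Uqcrb, Uqcrc2, Uqcrq, Cox17, Cox18, Cox4i1, Cox4i2, Cox6a2, Cox6c and Atp5a1.

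In complex IV the highest member per kilobase in air was among those that fell. Cox8a, the ubiquitous form of a small membrane subunit (chromosome 19, 7215153 to 7217616, minus strand), had 17366, 16007 and 15426 counts in air and 9770.4, 11774 and 8525 in hyperoxia. It fell by 0.71 ± 0.11 SE (limma adjusted p = 0.0022), a mean change of -38.4%, with no overlap, and it was called under all 16 alternatives. Per kilobase, Cox8a had 29575 ± 1810 counts in air, above the 20785 ± 913 of Cox6a1, the next in order. In hyperoxia the pair stood at 18224 ± 2981 and 18806 ± 4591 (SD, n = 3), a difference smaller than the spread. Its muscle counterpart Cox8b stood at no more than 1.88 counts in any library and was not tested.

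Cox5a, a matrix-side nuclear subunit (chromosome 9, 57521274 to 57532426, plus strand), had 2494, 1756 and 2166 counts in air and 1584, 1522 and 1677 in hyperoxia. It fell by 0.41 ± 0.12 SE (limma adjusted p = 0.026), with air library 2 only just above the hyperoxia libraries. The call was lost without air library 1 (-0.29), without air library 3 and without hyperoxia library 1, and with length and GC trends removed (-0.31, limma adjusted p = 0.068). Of its read-length windows, 21.7% also occur in the transcript of Gm26631, which overlaps it on the other strand. Its partner Cox5b, which binds zinc, had 7261, 7539 and 7647 in air and 6371, 7436 and 6056 in hyperoxia (-0.18 ± 0.09 SE, limma adjusted p = 0.13), and -0.27 with a call without hyperoxia library 2 (limma adjusted p = 0.0039).

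Of the 3 Cox7a genes 1 was called. Cox7a2l, known for joining complexes III and IV into supercomplexes and shortened in the C57BL/6 strain (chromosome 17, 83501918 to 83517330, minus strand), had 4708, 4665 and 4343 counts in air and 3275, 4101 and 3221 in hyperoxia. It fell by 0.38 ± 0.10 SE (limma adjusted p = 0.017), a call that did not hold without air library 1, air library 2 or hyperoxia library 1, with a highest adjusted p of 0.076 over the alternatives. Cox7a2, the liver-type subunit of the complex itself, had 2264, 2459.5 and 2375 in air and 2624, 3034 and 2646 in hyperoxia. Its hyperoxia libraries were all above the air libraries, at 0.22 ± 0.08 SE (limma adjusted p = 0.059), and it was called higher by DESeq2 and with length and GC trends removed. Cox7a1, the muscle type, was low in both groups, from 18.6 to 35.8 counts.

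As a share of the counts per kilobase of the 3 Cox7a genes, Cox7a2l made up 55.4%, 53.3% and 52.3% in air and 43.0%, 44.8% and 42.4% in hyperoxia. Cox7a2 made up 45.4% ± 1.69 in air and 55.8% ± 1.42 in hyperoxia (SD, n = 3). The groups did not overlap, and the 2-sided exact permutation test gave p = 0.1, the smallest it can give with 3 against 3. A share needs no size factor.

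The tissue-restricted forms of complex IV stayed a small part of their families. Cox6a2, the form used in heart and skeletal muscle and in some interneurons, had 147, 132 and 124 counts in air and 253, 363 and 134 in hyperoxia. Its change of 0.78 ± 0.29 SE was the largest upward among the tested members but was not called (limma adjusted p = 0.071), as hyperoxia library 3 lay among the air libraries. It was called by edgeR (0.89), by DESeq2 (0.90), with length and GC trends removed (0.92) and without hyperoxia library 3 (1.17). As a share of Cox6a counts per kilobase it was 0.994%, 0.915% and 0.916% in air and 2.10%, 2.18% and 1.29% in hyperoxia (exact permutation p = 0.1). The ubiquitous form Cox6a1 had 12292, 12027 and 11286 counts in air and 9896, 13678 and 8642 in hyperoxia (-0.17 ± 0.14 SE, limma adjusted p = 0.39), and without hyperoxia library 2 its change was -0.36 and called (limma adjusted p = 0.0025).

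Among markers of cells or tissue that could carry Cox6a2, 6 parvalbumin interneuron genes summed to between 17420 and 18044 counts in air and between 17892 and 18682 in hyperoxia. Of them, Erbb4 rose (0.85 ± 0.13 SE, limma adjusted p = 0.0017) and Pvalb fell by 0.88 ± 0.14 SE (limma adjusted p = 0.0021). Of 5 contractile muscle genes 4 were tested. The main limma analysis, edgeR and DESeq2 called 0 of them, with 1 at an unadjusted p under 0.05 in limma. Acta1 was called lower by limma without hyperoxia library 2 (limma adjusted p = 0.033). The 5 genes summed to 237 to 315 counts over the 6 libraries, of which Acta1 held 162 to 251. The part of these cells in the Cox6a2 values was not tested.

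Cox4i1, the ubiquitous form of the largest nuclear subunit, had 12060, 13886 and 12245 counts in air and 11525, 13979 and 10742 in hyperoxia (-0.08 ± 0.11 SE, limma adjusted p = 0.59). Cox4i2, the oxygen-responsive form known from lung, had 48.0, 32.6 and 41.1 in air and 39.8, 39.6 and 36.7 in hyperoxia (-0.05 ± 0.21 SE, limma adjusted p = 0.88). Its share of Cox4i counts per kilobase was 0.330% in both groups, with an SD of 0.0841 in air and 0.0352 in hyperoxia. Cox6b1 had 4965, 4888 and 5366 in air and 5146, 6170.2 and 5285 in hyperoxia (0.12 ± 0.09 SE, limma adjusted p = 0.30). With length and GC trends removed, Cox6b1 was called higher (0.26, limma adjusted p = 0.014). The testis form Cox6b2 had from 42.1 to 83.8 (0.25 ± 0.26 SE, limma adjusted p = 0.48).

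The other complex IV members were not called in the main analysis. With length and GC trends removed, Cox11, Cox14, Cox18 and Cox6c were called higher (0.51, 0.38, 0.35 and 0.32). Without hyperoxia library 2, limma called Cox11 higher (0.51) and Cox7c lower (-0.20). Of the 10 subunits used in all tissues, 2 fell, Cox5a and Cox8a. Among assembly factors, counted with Cox7a2l, 1 of 9 tested was called, and their log2 fold changes ran from -0.49 for the copper chaperone Cox17 to 0.42 for Cox11, which inserts copper. Cox20 and Cox7b2 had no more than 8.14 counts in any library and were not tested.

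**Figure D4:**
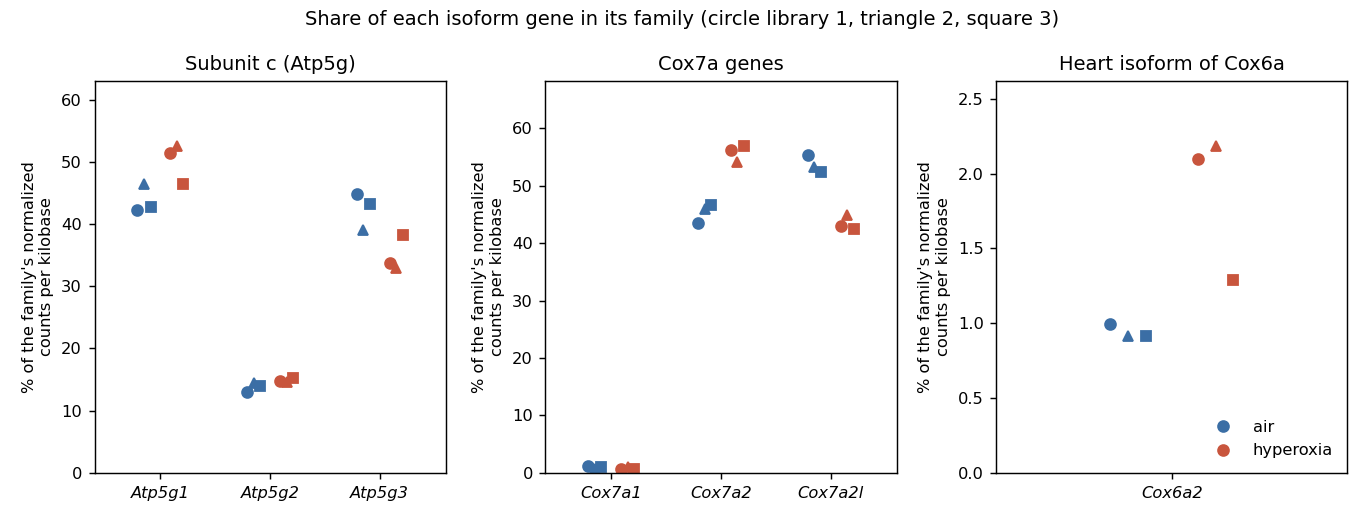
Each point is the percent that 1 gene makes up of its family's normalized counts per kilobase in 1 library, air in blue and hyperoxia in red, for the subunit c genes, the Cox7a genes and Cox6a2, on axes from 0. The shares of Cox7a2l and Atp5g3 are lower in all 3 hyperoxia libraries, and that of Cox6a2 is higher.

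In complex V the genes called were 2 of the stalk and membrane part, 1 of subunit c and Atp5sl. Atp5k, which encodes subunit e, a small protein at the place where ATP synthase dimers meet (chromosome 5, 108433244 to 108434448, minus strand), had 2090.0, 1652 and 2117 counts in air and 1022, 1045 and 1316 in hyperoxia. It fell by 0.79 ± 0.13 SE (limma adjusted p = 0.0021), the largest fall among the tested members, with a mean change of -42.3% and no overlap. Its transcript of 371 bases is the shortest among the tested members, and with length and GC trends removed its change was -0.44 and was not called (limma adjusted p = 0.075). It was called under the other 15 alternatives.

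Subunit c, the protein of the rotating ring, is encoded by 3 nuclear genes whose mature proteins are the same. Atp5g3 (chromosome 2, 73908447 to 73911326, minus strand) had 4889, 3736 and 4316 counts in air and 2779, 3144 and 3195 in hyperoxia. It fell by 0.50 ± 0.10 SE (limma adjusted p = 0.0068) and was called under all 16 alternatives. Atp5g1 had 3849, 3704 and 3569 in air and 3527, 4183 and 3244 in hyperoxia (-0.03 ± 0.10 SE, limma adjusted p = 0.84). With length and GC trends removed, Atp5g1 was called higher (0.185, limma adjusted p = 0.020).

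Atp5g2 had 877, 858 and 865 in air and 751, 860.4 and 789 in hyperoxia (-0.12 ± 0.08 SE, limma adjusted p = 0.30). Every read-length window of Atp5g2 and 59.6% of those of Atp5g1 also occur in other genes of the annotation, and none of those of Atp5g3 does, so the levels of the first pair are uncertain. Per kilobase, Atp5g3 made up 44.8%, 39.1% and 43.2% of subunit c counts in air and 33.8%, 32.9% and 38.2% in hyperoxia. The groups did not overlap (exact permutation p = 0.1), and Atp5g1 went from 43.8% ± 2.27 to 50.1% ± 3.19 (SD, n = 3). The sum of the 3 genes was 8887 ± 669 normalized counts in air and 7491 ± 609 in hyperoxia.

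Atp5sl, a gene named for its likeness to the ATP synthase factor Atp5s (chromosome 7, 25619414 to 25625551, plus strand), had 1599, 1478 and 1463 counts in air and 1100.5, 1348 and 925 in hyperoxia. It fell by 0.44 ± 0.12 SE (limma adjusted p = 0.024), and the call was lost in each fit without 1 air library and in that without hyperoxia library 1. Atp5f1, which encodes subunit b of the peripheral stalk and was named after its values were seen, had 7439.8, 7613 and 7126 in air and 6238, 6605 and 6216 in hyperoxia. It fell by 0.22 ± 0.07 SE (limma adjusted p = 0.034), was called under 9 of 16 alternatives, and was lost under quantile normalization, limma without the trend and every fit that left out 1 library apart from hyperoxia library 2.

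Atp5a1, the alpha subunit of the catalytic head, had 30644, 27892 and 27280 counts in air and 24794, 24290 and 25402 in hyperoxia. All hyperoxia libraries were lower, and the change of -0.20 ± 0.08 SE missed the threshold (limma adjusted p = 0.073). DESeq2 called it, as did limma without hyperoxia library 2, while quantile normalization left -0.0091 (limma adjusted p = 0.92). Atp5b, the beta subunit that carries the catalytic sites, had 34317, 33424 and 31204 in air and 30558, 34208 and 29836 in hyperoxia (-0.07 ± 0.08 SE, limma adjusted p = 0.58). Of the 7 stalk and membrane subunits other than subunit c, 2 fell, and the 7 log2 fold changes ran from -0.79 to 0.18. Of the 5 subunits of the head, with all libraries, 0 were called by the main limma analysis or edgeR and 1, Atp5a1, by DESeq2. In the main limma analysis 2 were at an unadjusted p under 0.05, and 2 were called by limma without hyperoxia library 2. With length and GC trends removed 1 was called, Atp5e, which was higher (0.54, limma adjusted p = 0.0012).

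**Figure D5:**
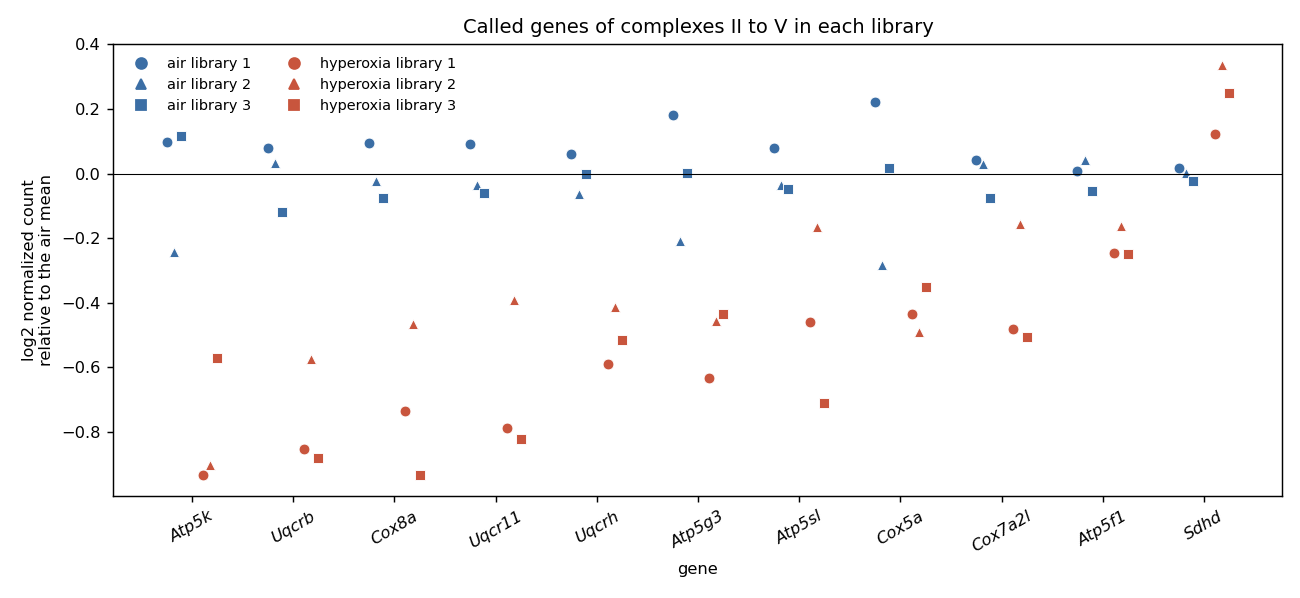
For the 11 called genes, the vertical axis gives the log2 normalized count of each library relative to the mean of the 3 air libraries, with air in blue, hyperoxia in red and the shape giving the library number. No gene has overlapping groups, and hyperoxia library 2 (triangles) is the hyperoxia library nearest to air for Uqcrb, Uqcr11, Uqcrh, Cox8a, Cox7a2l, Atp5sl and Atp5f1.

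Genes outside the naming rule but of the same pathway showed changes in both directions. Of 60 tested genes in 6 lists, 10 fell (16.7%, against 15.6% of all genes) and 5 rose (8.33%, against 14.9%). Among 8 genes of cytochrome c, cytochrome c1 and complex III assembly, 3 fell. Cyc1, which encodes the cytochrome c1 subunit of complex III, was not called (0.13 ± 0.09 SE, limma adjusted p = 0.34). With length and GC trends removed, Cyc1 was called higher (0.28, limma adjusted p = 0.0051). Cycs, which encodes cytochrome c itself, the carrier between complexes III and IV, had 2332, 2444 and 2243 counts in air and 1760.0, 1852 and 1883 in hyperoxia, and fell by 0.35 ± 0.07 SE (limma adjusted p = 0.0057). Uqcc3, an assembly factor of complex III, fell by 0.50 ± 0.09 SE (limma adjusted p = 0.0041), and Bcs1l, which inserts the Rieske protein, by 0.39 ± 0.09 SE (limma adjusted p = 0.013).

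Of 13 tested complex IV assembly genes, 2 fell and 2 rose. Pet100, a small assembly factor, had 689, 627 and 734 counts in air and 283, 305 and 396 in hyperoxia, and fell by 1.07 ± 0.13 SE (limma adjusted p = 0.00088). Higd2a, also an assembly factor, fell by 0.39 ± 0.09 SE (limma adjusted p = 0.0095). Lrpprc, which stabilises mitochondrial mRNA, rose (0.25 ± 0.07 SE, limma adjusted p = 0.025), with 0.12 and no call once length and GC trends were removed (limma adjusted p = 0.15). Cmc2 rose by 0.47 ± 0.15 SE (limma adjusted p = 0.040), and both genes were called under 9 of 16 alternatives.

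Of 11 regulators 1 rose and 2 fell. Ppargc1a, a coactivator of mitochondrial genes, had 1493, 1457 and 1512 counts in air and 2292, 1886 and 2064 in hyperoxia, a rise of 0.48 ± 0.08 SE (limma adjusted p = 0.0032) that was not called with length and GC trends removed (0.19, limma adjusted p = 0.068). Its partner receptor Esrra fell by 0.32 ± 0.08 SE (limma adjusted p = 0.014), and Tfb2m, the mitochondrial transcription factor, by 0.54 ± 0.08 SE (limma adjusted p = 0.0017). Of 5 other ATP synthase genes, with all libraries, 0 were called by limma, edgeR or DESeq2, with 1 at an unadjusted p under 0.05 in limma. Without hyperoxia library 2, limma called Atpaf2, Atpif1 and Usmg5 lower (limma adjusted p = 0.0052, 0.041 and 0.030). Of 13 citrate cycle genes 2 fell and 1 rose, and of 10 genes of the outer membrane and protein import 1 fell, Timm23 (-0.63 ± 0.09 SE), and 1 rose, Vdac3 (0.36 ± 0.07 SE).

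Mitochondrially encoded partners were measured with polyA selection and are given for comparison. mt-Cytb, the core of complex III, fell by 0.58 ± 0.17 SE (limma adjusted p = 0.026), and mt-Co1, the core of complex IV, changed by -0.30 ± 0.17 SE without a call (limma adjusted p = 0.22). In every library mt-Co1 had at least 715751 counts and mt-Cytb at least 387572. Other mitochondrially encoded subunits of complexes IV and V had at most 65.7 counts in any library, so few that they may not reflect transcript levels. Of these residual counts, those of mt-Co2 were higher in hyperoxia (1.27 ± 0.31 SE, limma adjusted p = 0.013). Those of mt-Co3 were also higher (1.05 ± 0.26 SE, limma adjusted p = 0.015). Why these counts were so low was not tested.

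Marker genes of several cell types moved with the exposure. The 5 hippocampal excitatory neuron markers, which were abundant in every library, summed to between 246310 and 258893 counts in air and between 170811 and 197219 in hyperoxia, with 4 of 5 lower. All 5 oligodendrocyte markers fell, their sum being 198358 to 303212 in air and 132944 to 163276 in hyperoxia. Of 5 thalamus markers 3 rose, with sums of 3367 to 3569 in air and 5270.2 to 6382 in hyperoxia. Astrocyte markers had 2 of 5 higher and 1 lower, with sums of 86693 to 87327 and 77934 to 86845. Choroid plexus markers had 1 of 8 higher, and their sum was 8296 in hyperoxia library 3 against 498 to 1435 in the other libraries. Of 11 tested pericyte and smooth muscle markers 2 rose (sums of 13875 to 13994 and 14934 to 17468), and of 5 blood genes 1 rose and 1 fell (sums of 1748 to 2835 and 2527 to 4042). The part of cell composition in the values of the complexes was not tested.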

How the data were processed

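mRNA of 6 libraries was analysed, 3 per group. The deposited table holds 1 signal per gene and library, for which the authors had scaled the read count by a size factor of the library. The submitters' processing notes name FastQC, STAR 2.5.3a, HTSeq and DESeq2. The build, the annotation and whether counting used strand were not given in the sources used here. A second deposited table holds the authors' own comparison (mean counts, fold changes and p-values) and was not used.

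In all libraries 100% of values lay within 0.01 of a whole read, so reads were recovered. Genes with a mean of at least 10 (17778) were tested on log2(value + 1) by limma 3.58.1 in R 4.3.3, allowing for a mean-variance trend, with Benjamini-Hochberg adjustment. Columns of a group were its replicates. Nothing says which animal or litter it came from, so p-values measure the spread between these libraries. Pairs of replicates differed beyond sampling noise (chi-square per gene 6.54 to 47.2). Alternatives were edgeR 4.0.16 and DESeq2 1.42.0 on recovered reads, pseudocounts of 0.5 and 5, a filter at a mean of 50 or none, scaling by TMM or to equal quantiles, no trend, each library left out, and removal of length and GC trends (mgcv 1.9.3). The fits were also tested on simulated data.

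Lengths, positions and shared windows of 75 bases came from GENCODE M21 on GRCm38 (99.7% of identifiers found, 84.8% with the same version), taking the shortest principal transcript. Tables were handled with Python 3.11.15 and pandas 2.3.3. The members and gene lists were chosen with earlier results of these data known. Genes given with every library's value are the structural genes of complex II, the large subunits of complex III, the isoform families and Cox5 genes of complex IV, the subunit c, alpha and beta genes of complex V, and up to 3 called members each way in complexes III, IV and V. Cox8c, Sco2, Pet117 and Atp5mpl were not analysed here.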

Additional observations from a re-analysis of the deposited data

How the results depend on the processing

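Against 11 members called (1 higher, 10 lower), limma without the trend gave 7 (6 lower, 0 in complex II, 2 in complex V), and the length and GC correction gave 21, with 13 higher, 2 in complex II, 5 in complex III and 9 in complex IV. edgeR called 2 higher, and DESeq2 3 higher and 5 in complex IV. With 1 library left out, from 6 to 21 members were called (0 to 3 higher, 6 to 19 lower), 0 to 2 in complex II, 1 to 7 in complex IV and 2 to 8 in complex V. The count of 21 came without hyperoxia library 2 and that of 6 without air library 1. Over all 17778 genes, limma without the trend called 4224 (1981 higher), edgeR 5501 (2779 higher) and DESeq2 5611 (2933 higher). The length and GC correction called 6039 of 17735 (2626 higher), and fits without 1 library called 3048 to 7756 (1445 to 3838 higher). The count of 15 other pathway genes, recomputed as an analysis added after seeing the data, ran from 8 to 26. Over 29 named genes and 16 alternatives, 414 of 462 fold changes kept their direction and side of the threshold, 20 lost the call, 14 gained one and 14 turned. With the length and GC correction Atp5b went to 0.0044, Atp5g1 to 0.185, Atp5g2 to 0.20, Cox4i1 to 0.10 and Cox4i2 to 0.13. Cox6a1 went to 0.0662, Cox7a1 to 0.0508, Uqcrc1 to 0.0001 and Uqcrfs1 to 0.0173, and quantile normalization took Atp5b to 0.10. None of these was called in the main analysis. With the length and GC correction Atp5g1 was called higher (limma adjusted p = 0.020). With 1 library left out, Sdhb ran from -0.0415 to 0.0650, Atp5g1 from -0.1315 to 0.0519 and Cox4i2 from -0.1952 to 0.0782. The cause of these shifts was not tested, and the fits that left 1 library out also held fewer libraries. No paired analysis was possible because the labels number the mice without repeats across the groups, and nothing ties columns with the same number to one litter or batch. The smallest called change was that of Atp5f1, which fell by 0.22 on the log2 scale.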
